A study of Mus musculus with 6 samples.

Results

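The genes described here are neuron and Schwann cell genes in the mouse cranial base, the plate of cartilage and bone under the brain. They were chosen by name, 30 genes in all, and 29 were found in the deposited table of 43496 gene entries. Tubb3 is not analysed here. RNA came from the cranial base of C57BL/6J embryos at E15.5 (embryonic day). There were 3 control embryos, whose label gives no more than that word for the genotype, and 3 Memo1 mutant embryos carrying an allele made with ENU, a chemical mutagen. Each library was read from its title as 1 embryo, which the labels do not say outright. Values are given for controls 1, 2 and 3 and mutants 1, 2 and 3 in that order, in FPKM, fragments scaled to transcript length and library size, so levels are scaled for gene length. All 29 averaged 1 FPKM or more over the 6 libraries, which was the minimum for testing, and so did 15710 entries of the whole table.

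Nerves and ganglia pass through and lie against the cranial base. Sensory neurons of the cranial ganglia and sympathetic neurons of the neck arise from neural crest and placodes. They fill their axons with tubulin-binding proteins and neurofilaments, and load their endings with synaptic vesicles and dense-core granules. Schwann cells and satellite glia, also from the neural crest, wrap the axons and cell bodies, and the factor Sox10 marks them and their precursors. Some of the genes have other sources. The pituitary lies in the cranial base and makes granule proteins, and chondrocytes make S100b.

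The libraries were unequal. Genes listed at 0 numbered 30811 in mutant 1 and 19787 to 20594 in each other library, and across genes the Pearson r of its log2 values with theirs was 0.748 to 0.762, where pairs of the other 5 gave 0.968 to 0.981 (genes are not independent replicates). Of 14767 genes above 1 FPKM in every control, 20.1% stood at 0 in mutant 1, 0.00677% in mutant 2 and 0.0542% in mutant 3. The 5th percentile of the nonzero values of mutant 1 was 1.87 FPKM, and elsewhere it was 0.0258 to 0.0364 FPKM. Judged from the steps between low values, relative to control 1, depth was 80.2% in control 2, 93.4% in control 3, 117% in mutant 2 and 152% in mutant 3, and could not be read for mutant 1. An exact 0 may not mean absence, since all 6 libraries list mt-Co1, a mitochondrial gene that every cell uses, at 0. Memo1 was 19.1 to 23.1 FPKM in controls and 20.1 to 25.4 FPKM in mutants, and an ENU allele need not change the level of its mRNA. The tissue label held: Col2a1, the main cartilage collagen, was 1570.0 to 2207 FPKM in controls and 2315 to 2660.0 FPKM in mutants.

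No neuron or Schwann cell gene passed the test between genotypes, and most neuron genes differed widely between single controls. With all 6 libraries limma called 0 of the 29 at an adjusted p of 0.05, against 0% of all 15710 genes, and the limma adjusted p of the 29 ran from 0.695 to 0.999. At an unadjusted p under 0.05 there was 1 of the 29, Th, beside 5.12% of all genes. With array weights, which count mutant 1 for little, limma called 0 of the 29 and 2.04% of all genes (0.719% higher and 1.32% lower in mutants), and without mutant 1 it called 0 of the 29 and 0.0446% of all genes. At an unadjusted p under 0.05, Th was the 1 gene of the 29 in each of those fits, beside 18.3% and 17% of all genes. The median log2 change of the 29 was 0.16, beside -0.046 over all tested genes. The change was above 0 in 18 of the 29, beside 45.8% of all genes, and without mutant 1 in 22, beside 47%. Without control 3 the median of the 29 was -0.043. The groups did not overlap in 1 of the 29, beside 20.9% of all genes, and no member was higher in every mutant, beside 8.98%.

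**Figure D1:**
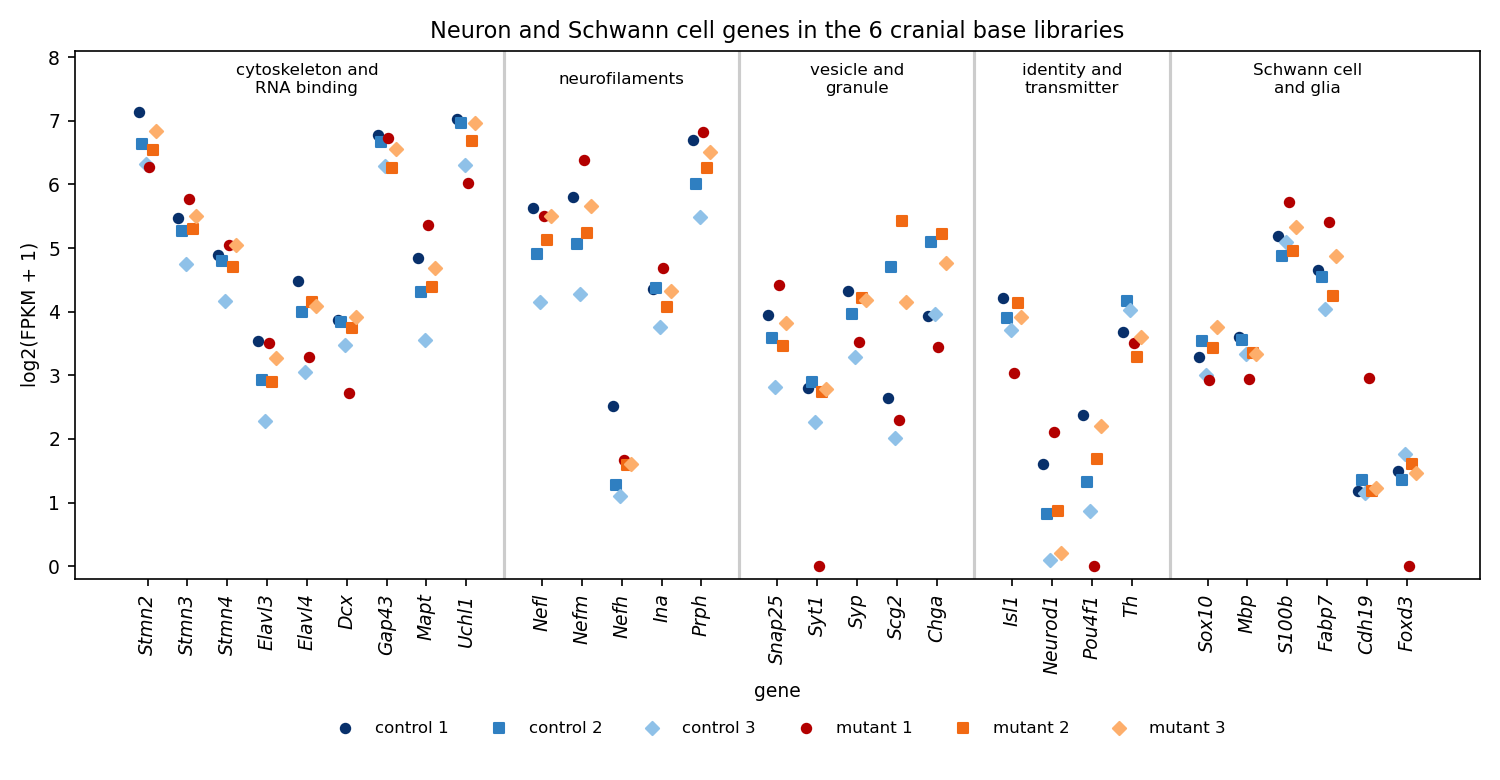
Level of each of the 29 genes in each library as log2(FPKM + 1), grouped by role, with 1 point for each embryo. Control 3 is the lowest library for 16 genes and control 1 the highest for 11, and Syt1, Pou4f1 and Foxd3 are listed at 0 in mutant 1.

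The genes of the neuronal cytoskeleton and of neuronal RNA binding ranged from a few FPKM to over 100 FPKM. Stmn2, a stathmin that binds tubulin in growing axons, was 140.2, 98.1 and 79.2 FPKM in controls 1, 2 and 3 and 76.5, 92.5 and 113 FPKM in mutants 1, 2 and 3. Gap43, a protein of growth cones, stood at 108, 100.1 and 77.2 in the controls and 105, 75.1 and 92.7 FPKM in the mutants. Uchl1, a ubiquitin hydrolase of neurons, stood at 129.7, 124 and 78.2 in the controls and 64.3, 102 and 124 FPKM in the mutants. For each of these genes control 1 was the highest control, control 3 was the lowest, and the lowest mutant fell below control 3, while the other mutants overlapped the controls. The fitted changes were small beside their errors, at a log2 change of -0.15, SE 0.25 for Stmn2, -0.066, SE 0.18 for Gap43 and -0.21, SE 0.31 for Uchl1 (limma adjusted p = 0.779, 0.861 and 0.753).

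The other 6 genes of this role had the same order of controls. Stmn3, a second stathmin, stood at 43.5, 37.5 and 26.0 in the controls and 53.5, 38.2 and 44.6 FPKM in the mutants. Mapt, the microtubule protein tau, stood at 27.7, 18.9 and 10.8 in the controls and 40.1, 19.9 and 24.9 FPKM in the mutants. Elavl4, an RNA-binding protein of neurons after their last division, stood at 21.3, 15.0 and 7.25 in the controls and 8.72, 16.7 and 16.1 FPKM in the mutants. Mutant 1 thus stood highest of all libraries for Stmn3 and Mapt and near the lowest for Elavl4. The log2 change was 0.36, SE 0.23 for Stmn3, 0.57, SE 0.40 for Mapt and 6.8e-04, SE 0.44 for Elavl4 (limma adjusted p = 0.695, 0.695 and 0.999). Stmn4 ran from 17.0 to 32.2 FPKM over the 6 libraries, Elavl3 from 3.85 to 10.6 FPKM and Dcx, a microtubule protein of migrating neurons, from 5.63 to 14.1 FPKM. Control 1 was the highest and control 3 the lowest control in all 9 genes of the role. Over all tested genes 20.8% had that order.

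The neurofilament genes had the largest median SD among the controls of the 5 roles, 0.74 on the log2 scale, and the same order of controls in 4 of 5. Nefl, the light subunit of the axonal filament, stood at 48.5, 28.9 and 16.7 in the controls and 44.55, 33.99 and 44.5 FPKM in the mutants. Nefm, the medium subunit, stood at 54.5, 32.4 and 18.5 in the controls and 82.4, 36.7 and 49.7 FPKM in the mutants. Nefh, the heavy subunit, stood at 4.70, 1.41 and 1.14 in the controls and 2.20, 2.01 and 2.04 FPKM in the mutants. For Nefl and Nefh control 1 exceeded all 3 mutants, and for all 3 subunits control 3 fell below them. Prph, or peripherin, the filament of peripheral neurons, stood at 103, 63.4 and 43.7 in the controls and 112, 75.3 and 90.6 FPKM in the mutants. Ina, or internexin, was 12.5 to 19.6 FPKM in controls and 15.8 to 24.7 FPKM in mutants. The highest control was 1.57 to 4.12 times the lowest over the 5 genes, with a median of 2.90 times. The log2 change was 0.71, SE 0.47 for Nefm, 0.49, SE 0.38 for Nefl, 0.47, SE 0.33 for Prph and -0.0025, SE 0.44 for Nefh (limma adjusted p = 0.695, 0.695, 0.695 and 0.998). For Nefm the 95% interval ran from -0.44 to 1.86, so the data do not set the direction. Without control 3 the log2 change of Nefm was 0.33, and without control 1 it was 1.09.

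**Figure D2:**
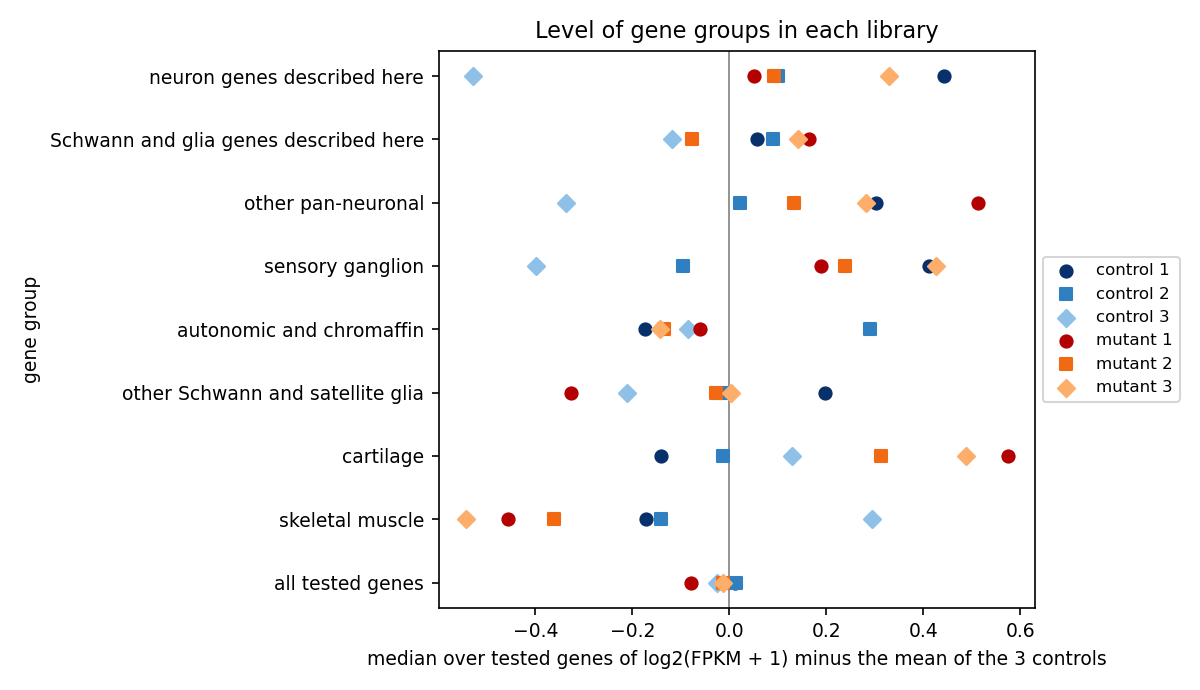
Median, over the tested genes of each group, of log2(FPKM + 1) minus the mean of the 3 controls, with 1 point for each library. For the neuron genes described here control 1 stands at 0.44 and control 3 at -0.53, with mutants 1, 2 and 3 between them at 0.050, 0.091 and 0.33, while all tested genes lie between -0.079 and 0.015.

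The neuron genes were spread widely between control libraries. The SD of log2(FPKM + 1) over the 3 controls had a median of 0.58 over the 23 neuron genes and of 0.19 over the 6 Schwann cell and glia genes, beside 0.12 over all tested genes. It exceeded the median of all tested genes in 28 of the 29 genes. Only 6.39% of all tested genes, and 3.55% of genes averaging 5 FPKM or more, had an SD above the median of the 29, which was 0.40. Without control 3 that median was 0.25. Control 1 was the highest and control 3 the lowest control in 18 of the 23 neuron genes. The exceptions were Ina, Syt1, Scg2, Chga and Th. Mutants 2 and 3 both lay within the control range in 16 of the 23, beside 21.6% of all tested genes. The spread of the controls also fixes that range, so a wide one holds more values.

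**Figure D3:**
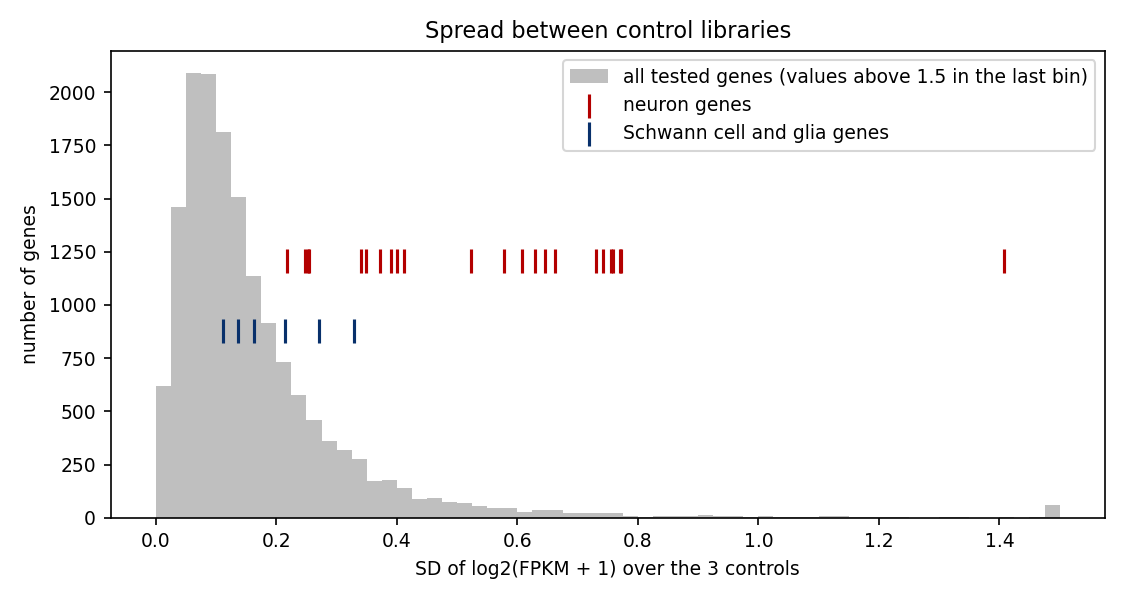
Histogram of the SD of log2(FPKM + 1) over the 3 controls for all 15710 tested genes, with a tick for each neuron gene and each Schwann cell and glia gene; the heights of the ticks carry no value. The neuron genes have a median of 0.58 with Scg2 at 1.41, and the Schwann cell and glia genes a median of 0.19.

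The order of the controls was shared by some other gene lists and not by others. Of 30 other pan-neuronal genes 25 had control 1 highest and control 3 lowest among the controls. So did 5 of 6 tested olfactory neuron genes, 8 of 16 tested sensory ganglion genes and 1 of 13 tested autonomic and chromaffin genes. Dpysl3, a protein of growth cones and the most abundant of the 30, stood at 192, 138 and 112 in the controls and 123, 152 and 166 FPKM in the mutants. P2rx3, the ATP-gated channel of pain-sensing neurons, stood at 17.3, 9.22 and 4.16 in the controls and 25.9, 14.5 and 18.4 FPKM in the mutants. Skeletal muscle genes had another order, with control 3 the highest of all 6 libraries in 7 of 7 genes and summed levels of 4387, 4461 and 6117 FPKM in controls 1, 2 and 3 and 3439, 3895 and 3364 FPKM in mutants 1, 2 and 3. The part of the muscle genes in the result was not tested. In RNA from whole tissue, fewer neurons and less RNA per neuron cannot be told apart. Defining genes of forebrain neurons were near 0: Neurod2, Neurod6, Tbr1 and Eomes were at most 0.115 FPKM in any library, and Gfap, the filament of astrocytes, at most 0.562 FPKM.

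Embryos are further grouped by the first word of their titles, which the labels do not explain. Mutant 1 has the word of control 1, mutant 3 that of controls 2 and 3, and mutant 2 a word of its own. Between the latter 3 embryos, mutant 3 stood above both controls in 19 of the 29 genes, beside 34.9% of all tested genes, and below both in 2, beside 37.4%. The 2 below were Th and Mbp. Mutant 3 exceeded the mean of controls 2 and 3 on the log2 scale by 0.98 for Nefl, 0.99 for Nefm, 0.77 for Prph, 0.76 for Mapt and 0.50 for Stmn3. Mutant 1 exceeded control 1 in 11 of the 29, beside 46.4% of all tested genes. It was lower by 0.87 for Stmn2 (log2 difference -0.87) and by 1.20 for Elavl4 (-1.20), and higher by 0.59 for Nefm. With 1 mutant in each of these sets there is no test. With the title word as a block, limma called 0 of the 29.

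Synaptic vesicle genes followed the other neuron genes in part. Snap25, a protein of vesicle fusion, stood at 14.5, 11.04 and 6.07 in the controls and 20.5, 10.01 and 13.2 FPKM in the mutants. Syp, the vesicle membrane protein synaptophysin, stood at 19.0, 14.6 and 8.79 in the controls and 10.5, 17.5 and 17.3 FPKM in the mutants. Syt1, the calcium sensor of vesicle release, was 5.98, 6.41 and 3.79 FPKM in the controls, was listed at 0 in mutant 1, and was 5.66 and 5.87 FPKM in mutants 2 and 3. For Snap25 and Syp the controls spanned mutants 2 and 3, and the level of Syt1 in mutants 2 and 3 lay within that of the controls. The log2 change was 0.45, SE 0.38 for Snap25 and 0.11, SE 0.33 for Syp (limma adjusted p = 0.695 and 0.868).

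The secretory granule genes Scg2 and Chga had a pattern unlike that of most other neuron genes described here. Scg2, secretogranin II, stood at 5.22, 25.1 and 3.04 in the controls and 3.94, 42.1 and 16.8 FPKM in the mutants. Chga, chromogranin A, stood at 14.2, 33.1 and 14.5 in the controls and 9.91, 36.4 and 26.3 FPKM in the mutants. Control 2 and mutants 2 and 3 were thus the high libraries for both genes, in either genotype. Other granule genes differed from one another in mutant 3, with Chgb below the controls, Scg5 within them and Scg3 above them. Chgb stood at 12.4, 25.1 and 16.1 in the controls and 16.4, 16.4 and 10.4 FPKM in the mutants, with mutant 3 the lowest library. Scg5 stood at 6.98, 8.315 and 3.00 in the controls and 8.28, 12.4 and 5.49 FPKM in the mutants. Scg3 stood at 8.36, 8.45 and 4.845 in the controls and 12.2, 8.96 and 9.10 FPKM in the mutants. Over the 3 controls the highest level was 8.24 times the lowest for Scg2 and 2.33 times for Chga. The log2 change was 0.84, SE 1.02 for Scg2 and 0.16, SE 0.56 for Chga (limma adjusted p = 0.714 and 0.890). Without mutant 1 these changes were 1.67, with a 95% interval of -0.52 to 3.87, and 0.67, with one of -0.29 to 1.63.

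Pituitary genes were high in control 2 and mutant 2 as well. Pomc, the precursor of the hormone ACTH, was 1.71, 53.7 and 1.534 FPKM in the controls, was listed at 0 in mutant 1, and was 66.2 and 2.44 FPKM in mutants 2 and 3. The summed level of the 12 pituitary genes stood at 23.6, 127 and 26.1 in the controls and 19.8, 140 and 23.03 FPKM in the mutants. Pou1f1, a factor that defines several pituitary hormone cells, was 6.84 FPKM in control 2, 10.4 FPKM in mutant 2, 0.109 FPKM in mutant 3 and listed at 0 in the other 3 libraries. Of the 12 genes 5 were listed at 0 in control 1, 0 in control 2, 4 in control 3, 9 in mutant 1, 1 in mutant 2 and 3 in mutant 3. In mutant 3, where Scg2 and Chga were also high, the pituitary sum was below that of control 1. The part of pituitary tissue in the levels of Scg2 and Chga was not tested.

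**Figure D4:**
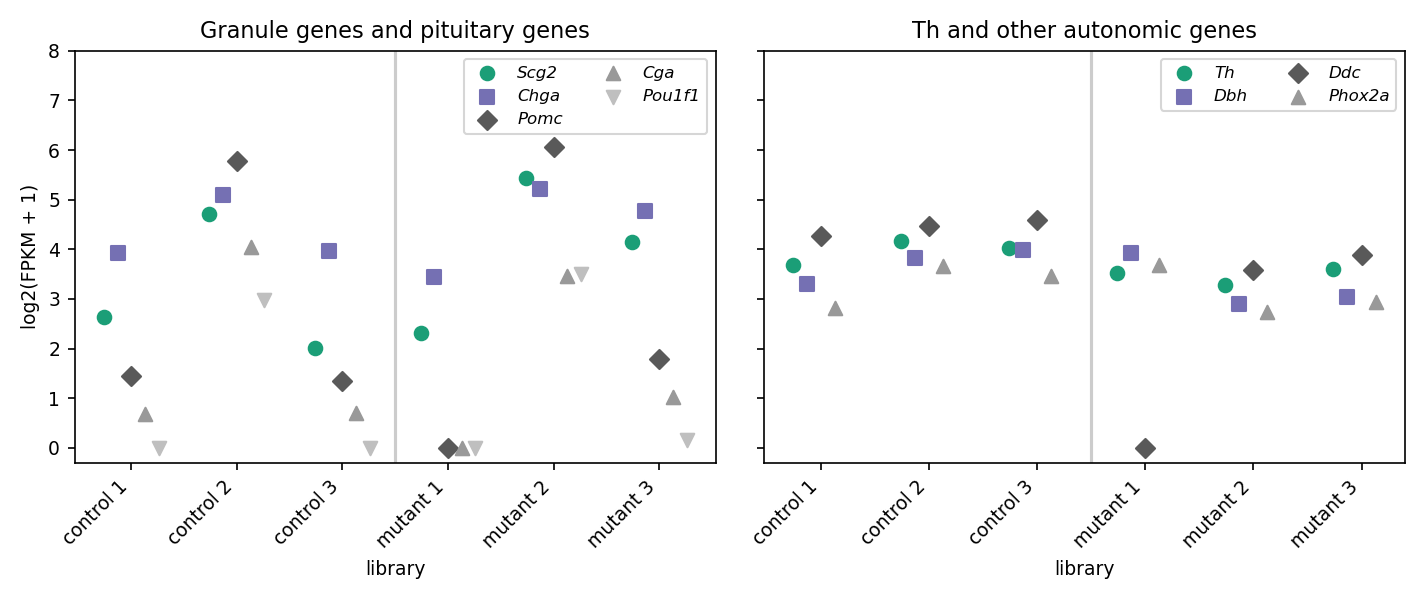
Level in each library as log2(FPKM + 1), with 1 point for each gene and embryo: on the left the granule genes Scg2 and Chga with the pituitary genes Pomc, Cga and Pou1f1, on the right Th with Dbh, Ddc and Phox2a. Scg2 reaches 25.1 FPKM in control 2 and 42.1 FPKM in mutant 2, where Pomc is 53.7 and 66.2 FPKM, and Th in every mutant lies below every control.

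The promoters of Scg2, Chga and Th are shown because Scg2 and Chga were both high in control 2 and mutants 2 and 3, and Th is the member whose groups do not overlap. They are RefSeq sequences of build GRCm38.p6, 300 bases around each gene's start. The capitals mark TGACGTNA, the letters of a cyclic AMP response element in which N is any base, searched on both strands (its reverse complement is TNACGTCA, and TGACGTCA matches both). The motif stood in 2.93% of the 32851 promoter entries of that table, and in an entry of 4 of the 19 genes named here that have one, the other being Foxd3. This was the only motif searched, and how it was chosen is not recorded. The share of 2.93% counts entries, while 4 of 19 counts genes, some with several entries. The 2 values are therefore no test of enrichment. A match describes the letters and is not evidence of binding.
Scg2, chr1:79439977-79440276, minus strand: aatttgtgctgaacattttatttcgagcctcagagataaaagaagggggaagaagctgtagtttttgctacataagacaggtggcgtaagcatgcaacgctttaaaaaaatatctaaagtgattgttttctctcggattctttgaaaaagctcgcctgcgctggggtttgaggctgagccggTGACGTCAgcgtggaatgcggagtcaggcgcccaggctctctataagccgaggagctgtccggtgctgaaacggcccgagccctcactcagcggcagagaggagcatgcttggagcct
Chga, chr12:102554691-102554990, plus strand: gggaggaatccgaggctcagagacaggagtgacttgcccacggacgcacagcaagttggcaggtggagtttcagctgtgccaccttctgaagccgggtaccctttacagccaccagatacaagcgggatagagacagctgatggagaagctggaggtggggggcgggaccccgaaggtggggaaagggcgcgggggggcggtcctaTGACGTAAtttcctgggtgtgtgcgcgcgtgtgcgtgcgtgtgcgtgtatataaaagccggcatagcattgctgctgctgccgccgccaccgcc
Th, chr7:142899946-142900245, minus strand: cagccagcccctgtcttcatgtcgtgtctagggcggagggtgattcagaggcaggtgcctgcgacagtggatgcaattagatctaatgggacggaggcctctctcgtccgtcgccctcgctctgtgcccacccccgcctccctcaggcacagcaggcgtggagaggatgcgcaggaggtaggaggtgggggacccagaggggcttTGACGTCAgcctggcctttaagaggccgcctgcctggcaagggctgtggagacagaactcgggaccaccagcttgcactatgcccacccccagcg

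Th, tyrosine hydroxylase, the first enzyme of catecholamine synthesis and a mark of sympathetic neurons, was the member nearest to a difference. It stood at 11.8, 17.0 and 15.3 in the controls and 10.4, 8.74 and 11.2 FPKM in the mutants, so every mutant lay below every control. Its mean level was 14.7 ± 2.67 FPKM (SD, n = 3) over controls and 10.1 ± 1.24 FPKM (SD, n = 3) over mutants. The gap between the lowest control and the highest mutant was smaller than the SD of either group. The log2 change was -0.49, SE 0.19 (limma unadjusted p = 0.0428, adjusted p = 0.695), and without mutant 1 it was -0.51, with a 95% interval of -0.94 to -0.087 (limma adjusted p = 0.228). Over the 12 alternatives the log2 change stayed below 0 and did not pass. All 3 mutants lay below all 3 controls in 11.9% of all tested genes. In the authors' deposited table the p-value of Th was 0.0493, the only one of the 29 under 0.05.

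Other genes of sympathetic neurons gave no single picture beside Th. Dbh, the enzyme that makes noradrenaline from dopamine, stood at 8.87, 13.1 and 14.8 in the controls and 14.2, 6.49 and 7.21 FPKM in the mutants. Ddc, the enzyme after Th in the same pathway, was 18.3, 21.3 and 22.98 FPKM in the controls, was listed at 0 in mutant 1, and was 10.97 and 13.8 FPKM in mutants 2 and 3. Phox2a, a factor of autonomic neurons, stood at 6.01, 11.7 and 9.97 in the controls and 11.8, 5.63 and 6.69 FPKM in the mutants. Mutants 2 and 3 thus lay below the controls for Dbh and Ddc, and for Phox2a mutant 2 lay below them and mutant 3 within them, while mutant 1 differed from gene to gene. Of 13 tested autonomic and chromaffin genes 3 were above 0 and 10 below from all 6 libraries, with a median log2 change of -0.41. Without mutant 1, which listed Ddc and others of them at 0, 5 were above 0 and 8 below, with a median of -0.19. In both fits limma called 0 of the 13, and 0 and 3 of them had an unadjusted p under 0.05, beside 5.12% and 17% of all genes.

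Among factors of sensory neurons, Pou4f1 and Neurod1 were low and uneven, while Isl1 was higher and steadier between controls. Isl1, a homeodomain factor of sensory and sympathetic neurons, stood at 17.5, 13.9 and 12.1 in the controls and 7.24, 16.6 and 14.1 FPKM in the mutants. Pou4f1, or Brn3a, a factor of sensory neurons, was 4.20, 1.51 and 0.828 FPKM in the controls, was listed at 0 in mutant 1, and was 2.20 and 3.62 FPKM in mutants 2 and 3. Neurod1, a factor of young neurons that the pituitary and inner ear also use, stood at 2.06, 0.775 and 0.0679 in the controls and 3.30, 0.816 and 0.159 FPKM in the mutants. For Isl1 and Pou4f1 mutant 1 was the lowest library, and for Neurod1 it was the highest. The highest control was 30.3 times the lowest for Neurod1, and the 5th percentile of the nonzero values of control 3 was 0.0284 FPKM. The 95% interval of the log2 change ran from -1.04 to 0.56 for Isl1 and from -1.38 to 1.81 for Neurod1.

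**Figure D5:**
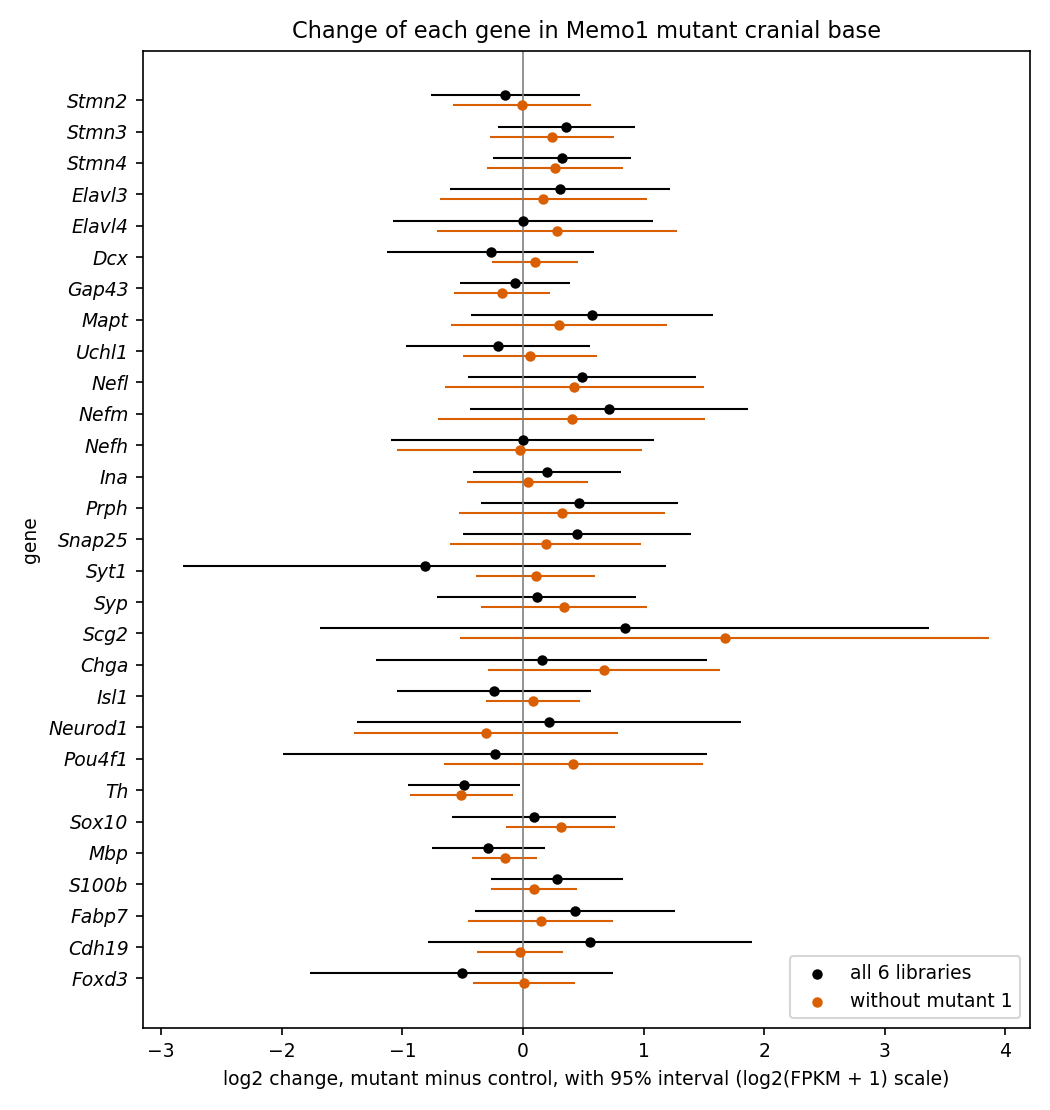
Log2 change of each of the 29 genes, mutant minus control, on the log2(FPKM + 1) scale, with the 95% interval from limma, for all 6 libraries in black and without mutant 1 in orange. Every interval crosses 0 except that of Th, which runs from -0.96 to -0.022 and from -0.94 to -0.087 before adjustment for the number of genes.

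Other sensory ganglion genes stood on the higher side when mutant 1 was left out. Of 16 tested, 10 were above 0 from all 6 libraries and 15 without mutant 1, with median log2 changes of 0.28 and 0.31. In neither fit did limma call any of the 16, and 2 and 4 of them had an unadjusted p under 0.05, beside 5.12% and 17% of all genes. Ntrk2, the receptor of the neurotrophin BDNF, stood at 13.6, 14.8 and 12.1 in the controls and 24.4, 15.6 and 18.7 FPKM in the mutants. Mutant 3 stood above controls 2 and 3 in 15 of the 16. Of the 30 other pan-neuronal genes 27 were above 0 from all 6 libraries and 26 without mutant 1, with median log2 changes of 0.34 and 0.20, and limma called 0 of them in either fit. Their other abundant members overlapped between groups, with Tubb2b, a neuronal tubulin, at 118 to 155 FPKM in controls and 121 to 176 FPKM in mutants, and Rtn1 at 29.4 to 65.6 FPKM and 44.2 to 94.9 FPKM.

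The Schwann cell and glia genes were steadier between controls than the neuron genes. Sox10, the factor that defines Schwann cells, satellite glia and melanocytes, stood at 8.77, 10.6 and 6.997 in the controls and 6.63, 9.71 and 12.5 FPKM in the mutants. Fabp7, a fatty acid binding protein of satellite glia and Schwann cell precursors, stood at 24.1, 22.4 and 15.4 in the controls and 41.5, 17.9 and 28.4 FPKM in the mutants. S100b, a calcium-binding protein of Schwann cells and of chondrocytes, stood at 35.6, 28.3 and 33.1 in the controls and 52.0, 29.9 and 39.3 FPKM in the mutants. Mutant 1 was the highest library for Fabp7 and S100b and the lowest for Sox10, so these genes did not move together in it. The log2 change was 0.095, SE 0.28 for Sox10, 0.43, SE 0.34 for Fabp7 and 0.28, SE 0.22 for S100b (limma adjusted p = 0.866, 0.695 and 0.695).

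Mbp, the myelin basic protein that is also made outside myelin, had the smallest ratio of highest to lowest control of the 29 genes, 1.22. It stood at 11.1, 10.7 and 9.14 in the controls and 6.65, 9.20 and 9.11 FPKM in the mutants, and mutant 2 lay inside the control range. Its log2 change was -0.29, with a 95% interval of -0.76 to 0.18 (limma adjusted p = 0.695). Cdh19, a cadherin of Schwann cell precursors, stood at 1.28, 1.57 and 1.22 in the controls and 6.73, 1.27 and 1.35 FPKM in the mutants. Its higher mean in mutants was the value of mutant 1 alone, and without mutant 1 the log2 change was -0.025, with a 95% interval of -0.38 to 0.33, against 0.56 with it. Foxd3, a factor of early neural crest and glial precursors, was 1.81, 1.54 and 2.41 FPKM in the controls, was listed at 0 in mutant 1, and was 2.06 and 1.77 FPKM in mutants 2 and 3. Cdh19 at 6.73 FPKM and Foxd3 at 0 stood in the library whose nonzero values have their 5th percentile at 1.87 FPKM.

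Of 15 other tested genes of Schwann cells and satellite glia, 6 were above 0 and 9 below, with a median log2 change of -0.072, and limma called 0 of them from all 6 libraries. With array weights limma called 1, lower in mutants, beside 1.32% of all genes. This was Mal, a membrane protein of myelin and of epithelia, at 9.66, 7.72 and 8.33 in the controls and 6.47, 4.25 and 4.90 FPKM in the mutants (weighted log2 change -0.74, limma adjusted p = 0.0361; from all 6 libraries limma adjusted p = 0.695, and without mutant 1 limma adjusted p = 0.0772). The most abundant members were Pmp22, a myelin protein that connective tissue also makes, at 121 to 130.1 FPKM in controls and 107 to 141 FPKM in mutants, and Ngfr, the low-affinity neurotrophin receptor, at 37.0 to 45.8 and 42.1 to 51.4 FPKM. L1cam, an adhesion molecule of axons and Schwann cells, was 6.70 to 11.6 FPKM in controls, 11.4 and 11.5 FPKM in mutants 2 and 3, and 65.8 FPKM in mutant 1. Melanocyte genes, which share Sox10, were low, with summed levels of 6.92 to 10.9 FPKM in controls and 7.495 to 24.4 FPKM in mutants. Tyr and Mlana, which define pigment cells, were at most 0.19 FPKM.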

How the data were processed

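RNA-seq values of 3 control and 3 Memo1 mutant cranial bases were read from 1 deposited table. The values are FPKM made by the authors; the unit was inferred from Cufflinks and the build mm9, which the submitters' processing notes name, and from the values. No source used here names the aligner, annotation release or filters. The p-value of the authors' deposited table comes from a test that is not stated. A code for missing values stood in 15 entries, which were left out. Where a gene name repeated, the row with the highest mean was taken.

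The 15710 entries averaging 1 FPKM or more over the 6 libraries entered a linear model of log2(FPKM + 1) on genotype. It was fitted in R 4.3.3 by limma 3.58.1 (lmFit, then eBayes with trend and robust). Tests were two-sided, and p-values were adjusted over all those entries by Benjamini-Hochberg at a threshold of 0.05. Log2 changes on this scale understate the change of low genes. The fit was checked on simulated data with the same noise for every gene of a library and no exact zeros. That check does not show how the fit handles the spread of single genes or the zeros of mutant 1. Figures were drawn with matplotlib 3.10.9.

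The genes described and the 12 companion lists (162 genes found, L1cam in 2 lists) were chosen with earlier results of these data known, so no p was adjusted over a list alone. All members are named. From each list the 3 most abundant genes and those past the threshold were eligible. The others named were chosen after their values were seen (Phox2a, Scg3, Scg5, Cga, Pou1f1, Gfap, Tyr, Mlana, Tecta, Tectb, Lhx2, Omp and the forebrain genes). Each library has a title of its own, read here as 1 embryo; the labels do not say so outright, so p-values measure only the spread between these samples, which may be technical. Replicates are numbered in accession order. No pair of libraries were copies, with at most 0.00637% of tested values equal. Alternatives were array weights, no filter on low values, a minimum of 5 FPKM, a pseudocount of 0.1, median-ratio scaling, the title word as a block, and leaving out each library. The table holds no counts, so no counting interval is given. Some genes of the companion lists are counted but not reported by name here.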

Additional observations from a re-analysis of the deposited data

How the results depend on the processing

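In none of the 12 alternatives did limma call any of the 29 genes; 6 of them were not tested at a minimum of 5 FPKM. With array weights limma called 320 of all genes, and leaving out 1 library at a time gave 0 to 7, the 7 without mutant 1. The median log2 change of the 29 ran from -0.043 without control 3 to 0.35 without control 1, and the median SD of the controls from 0.25 without control 3 to 0.51 without control 2. With the title word as a replicate block the median log2 change was 0.069. These words pair no samples by the labels.

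The direction of 12 genes held in every alternative run: Fabp7, Mapt, Mbp, Nefl, Nefm, Prph, S100b, Scg2, Snap25, Stmn3, Stmn4 and Th. It turned in the other 17, none of which passed in any setting. With array weights the log2 change turned to -0.013 for Cdh19, 0.10 for Dcx, 0.042 for Isl1, -0.42 for Neurod1, 0.47 for Pou4f1, 0.024 for Stmn2, 0.067 for Syt1 and 0.072 for Uchl1. It turned to 0.069 for Nefh at a pseudocount of 0.1 and to -0.044 for Elavl4 with median-ratio scaling. With the title word as a block it turned to -0.064 for Chga, -0.19 for Elavl4, 0.022 for Gap43 and -0.024 for Syp.

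Leaving out 1 library at a time, the log2 change ran from -0.025 to 0.86 for Cdh19, -0.22 to 0.67 for Chga, -0.50 to 0.098 for Dcx, -0.011 to 0.62 for Elavl3, -0.40 to 0.32 for Elavl4 and -0.80 to 0.0060 for Foxd3. It ran from -0.21 to 0.063 for Gap43, -0.0023 to 0.34 for Ina, -0.46 to 0.087 for Isl1, -0.27 to 0.44 for Nefh, -0.31 to 0.64 for Neurod1 and -0.69 to 0.42 for Pou4f1. It ran from -0.099 to 0.31 for Sox10, -0.33 to 0.075 for Stmn2, -0.17 to 0.35 for Syp, -1.28 to 0.11 for Syt1 and -0.44 to 0.060 for Uchl1. The cause was not tested. With 3 embryos a group and FPKM without counts, changes smaller than the intervals given above were not detectable.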

Other observations

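Some genes of other sensory organs were uneven between libraries. Those given first were singled out after their values were seen, except Oc90, the most abundant gene of its list. Oc90, a protein of the otoconia of the inner ear, was 53.0 FPKM in control 2 and at most 0.160 FPKM in the other 5 libraries. Tecta and Tectb, proteins of the tectorial membrane, were 4.24 and 5.64 FPKM in control 2 and at most 0.469 and 0.148 FPKM elsewhere. Lhx2, a factor of olfactory neurons and of other tissues, was 11.8 FPKM in control 1, 2.74 and 0.681 FPKM in controls 2 and 3 and 5.57, 1.24 and 0.840 FPKM in mutants 1, 2 and 3. Omp, which defines mature olfactory neurons, was 1.93 FPKM in control 1, at most 0.515 FPKM in mutants 2 and 3 and controls 2 and 3, and listed at 0 in mutant 1. The other abundant genes of the same lists varied less between controls. Of 6 tested olfactory genes, 5, with Lhx2, Ebf3 and Adcy3 among them, had control 1 highest and control 3 lowest of the controls. Of the inner ear list, Myo7a was 6.15 to 7.27 FPKM in controls, and Espn was 2.91, 1.58 and 1.71 FPKM in controls 1, 2 and 3. Of the olfactory list, Ebf3, Ebf2 and Adcy3 were 9.62 to 12.3, 10.9 to 12.5 and 9.67 to 11.4 FPKM in controls. Mutant 1 was their highest library.

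Over the remaining lists limma called 0 genes from all 6 libraries. With array weights it called 2 of 8 cartilage genes, Sox9 and Acan, higher in mutants (0.719% of all genes), and 5 of 6 fat cell genes, Adipoq, Plin1, Cidec, Pparg and Car3, lower (1.32%). Without mutant 1 it called 0 of the cartilage genes and 1 of the fat cell genes, Cidec, so the other 6 calls ended. With array weights it called 0 of 7 muscle, 7 central nervous system, 7 pituitary, 2 melanocyte, 3 inner ear and 6 olfactory genes tested.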
